A study of Mus musculus with 12 samples.

Results

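The miR-125, miR-99/100 and miR-10 families were followed in serum extracellular vesicles (EVs) as 7 mature mouse miRNAs, mmu-miR-125a-5p, mmu-miR-125b-5p, mmu-miR-99a-5p, mmu-miR-99b-5p, mmu-miR-100-5p, mmu-miR-10a-5p and mmu-miR-10b-5p (the prefix is left out hereafter), chosen by name from the 1995 features of the count table. All 7 were present and all 7 had enough counts to be tested. Small RNAs were sequenced from blood EVs of 6 Rag1-/- mice after transfer of 10000000 WT T cells into each and of 6 Rag1-/- mice given medium alone, with 1 mouse per library. Rag1-/- mice make no mature T or B cells of their own, so both groups lacked host T and B cells and the comparison asks how the vesicle miRNAs differed once WT T cells were present. The mice were males on the C57BL/6 background, used at 8 to 12 weeks of age unless the study states otherwise, the T cells came from WT spleens by a pan T cell isolation, and the EVs were enriched from fresh serum by differential ultracentrifugation. Serum EVs come from many cell types, so more cells that release vesicles and more of a miRNA per cell cannot be told apart in these data.

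Mature miRNAs guide Argonaute proteins to mRNAs mainly through the seed, bases 2 to 8 from the 5′ end, so miRNAs with 1 seed are treated as 1 family. The miR-125 family, related to lin-4 of Caenorhabditis elegans, acts in the differentiation of blood cells. The miR-99/100 family is known for repressing mTOR, and the miR-10 family for lying in the Hox gene clusters and repressing Hox genes. In mammals, miR-99/100 and miR-125 genes flank a let-7 gene in the same clusters.

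The mature sequences (RefSeq, GRCm38.p6, found for 7 of 7 names) show which members can be told apart by sequencing and why they form 3 families. Each is written 5′ to 3′ with the seed in capitals.
miR-125a-5p: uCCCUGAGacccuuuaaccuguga
miR-125b-5p: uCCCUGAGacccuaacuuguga
miR-99a-5p: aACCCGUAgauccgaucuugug
miR-99b-5p: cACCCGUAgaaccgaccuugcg
miR-100-5p: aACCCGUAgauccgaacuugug
miR-10a-5p: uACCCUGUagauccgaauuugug
miR-10b-5p: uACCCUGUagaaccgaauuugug
miR-125a-5p and miR-125b-5p share their first 13 bases. Counting from 1 at the 5′ end, miR-99a-5p and miR-100-5p differ only by U16A, and miR-10a-5p and miR-10b-5p only by U12A. miR-99b-5p stands further off, with A1C, U11A, U16C and U21C against miR-99a-5p. The miR-99/100 and miR-10 families also share a core outside the seed: 11 bases of miR-100-5p, starting at its base 6, recur in miR-10a-5p starting at base 7. Counts of the pairs that differ by 1 base are therefore uncertain wherever the alignment could place a read on either member.

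The 7 miRNAs come from 8 hairpins on 5 chromosomes (GRCm38). On chromosome 17, Mir99b (chr17:17830188-17830257), Mirlet7e (chr17:17830352-17830444) and Mir125a (chr17:17830812-17830879) lie within 692 bases on the plus strand of Spaca6, the first 2 in introns and Mir125a over an annotated exon. On chromosome 16, Mir99a (chr16:77598936-77599000), Mirlet7c-1 (chr16:77599657-77599750) and Mir125b-2 (chr16:77646273-77646343) lie in introns of the noncoding host gene Mir99ahg over 47408 bases. On chromosome 9, Mir100 (chr9:41531425-41531504), Mirlet7a-2 (chr9:41536716-41536811) and Mir125b-1 (chr9:41581926-41582002) lie in introns of the noncoding gene 3110039I08Rik over 50578 bases. Mir10a (chr11:96317165-96317274) lies 993 bases from Hoxb4 and outside other annotated genes, and Mir10b (chr2:74726070-74726137) lies in introns of Hoxd3 and Hoxd4. Mir125b-1 and Mir125b-2 give the same miR-125b-5p, whose counts cannot be assigned to chromosome 9 or 16.

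Library totals ranged from 48997 to 130106 counts, and a member had 14 to 816 counts in a library. Depth limits the low members: the 14 counts of miR-100-5p in medium replicate 2 are 218 CPM of the unscaled library total (95% exact binomial interval 119 to 366 CPM, counting error only), whereas the 816 counts of miR-125a-5p in T cell replicate 2 are 6272 CPM on the same basis (interval 5850.0 to 6716 CPM). For each member the spread between mice was wider than counting error alone, with a coefficient of variation of 18.6% to 70.1% against 4.82% to 19.7% from counting. Counts from 1 to 9 were absent in 2 libraries, T cell replicate 2 and, in the medium group, replicate 3. All other levels are CPM, counts per 1000000 of the library, after TMM scaling, and fold changes are T cells over medium from edgeR's quasi-likelihood test. DESeq2, the tool of the study, was run on the same counts. Adjusted by Benjamini-Hochberg over the whole table, edgeR called 0 of 1720 features (120 had an unadjusted p under 0.05, 87 of them higher with T cells), limma voom called 0 (119 under an unadjusted 0.05), and DESeq2 called 40 higher and 4 lower of the 561 to which it gave an adjusted p.

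All 7 miRNAs had a positive fold change after T cell transfer, from 0.12 for miR-99a-5p to 1.57 for miR-125b-5p on the log2 scale, whereas 45.2% of all tested features did. The miR-125 family stood highest in level and in fold. The miR-10 and miR-99/100 families were close to each other in summed level, and the ratio of the group means was larger for the miR-10 family (1.82 against 1.36), a difference that was not tested. edgeR called 0 of the 7 at an adjusted p under 0.05, and its share over all features was 0% in the higher direction. At an unadjusted p under 0.05, 5 of the 7 were higher, against 5.06% of all features. DESeq2 called 3 of the 7 higher, miR-125b-5p, miR-10a-5p and miR-125a-5p, against 7.13% of the features with an adjusted p. In 5 of the 7, at least 4 T cell mice lay above the highest medium mouse, which held for 5.64% of all features. In 0 of the 7 were the groups fully apart, as they were in 0.174% of features. These shares depend on abundance: among the 88 features with a mean of 100 or more counts, 75% had a positive fold change (median 0.70), 43.2% were higher at an unadjusted p under 0.05 and 31.8% were called higher by DESeq2. At least 4 T cell mice lay above the highest medium mouse in 35.2% of these 88. miR-125a-5p and miR-125b-5p belong to these 88, at ranks 25 and 33 of 1995 by mean count, and the other 5 members have means from 36.9 to 88.8 counts.

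**Figure D1:**
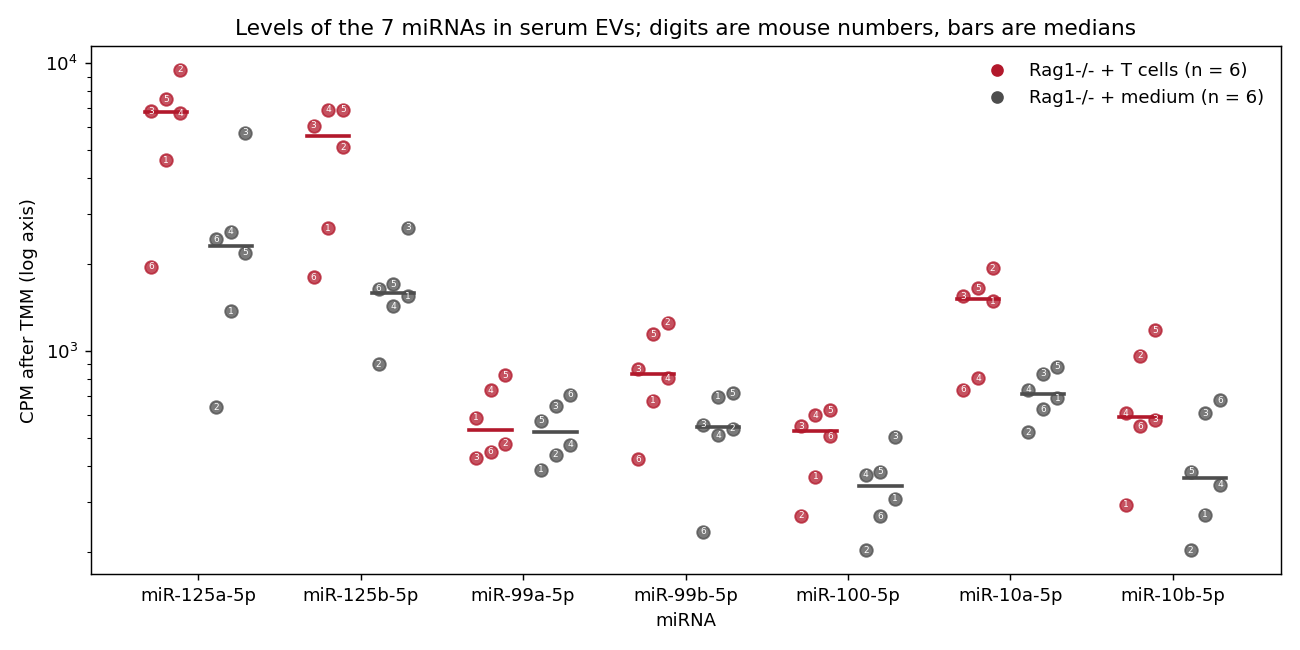
Level of each of the 7 miRNAs in CPM after TMM (log axis) in every library; red, Rag1-/- mice with T cells (n = 6), grey, Rag1-/- mice with medium (n = 6), digits the mouse numbers and bars the group medians. T cell replicate 6 is the lowest T cell mouse for miR-125a-5p, miR-125b-5p, miR-99b-5p and miR-10a-5p, and the groups overlap for all 7.

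In the miR-125 family, miR-125b-5p, a regulator of blood stem cells and lymphocyte development, was at 1805, 5592 and 6909 CPM (lowest, median and highest of 6 mice) with T cells and at 900.0, 1598 and 2683 CPM with medium. Of the medium mice, 5 lay below every T cell mouse, and only replicate 3 reached into the T cell range, above T cell replicates 6 and 1. Its log2 fold change was 1.57 (standard error 0.34, edgeR unadjusted p = 2.98e-04, adjusted p = 0.204), and DESeq2 gave an adjusted p of 0.00176. This call in DESeq2 held with each library left out in turn, with an adjusted p of at most 0.0134.

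miR-125a-5p, the paralog made with let-7e and miR-99b, was the most abundant of the 7 members. It was at 1965, 6768 and 9487 CPM with T cells and at 639, 2319.9 and 5739.7 CPM with medium. T cell replicate 6 lay below 4 medium mice, medium replicate 3 lay above 2 T cell mice, and the other T cell mice were above the other medium mice. The log2 fold change was 1.30 (standard error 0.44, edgeR unadjusted p = 0.00849, adjusted p = 0.365), with an adjusted p of 0.0456 in DESeq2. That DESeq2 call was lost in 10 of the 12 fits that each left out 1 library, and was kept without T cell replicate 6 (adjusted p = 0.00530) and without medium replicate 3 (adjusted p = 0.00162). Summed, the family averaged 11095 ± 4496 CPM in the T cell group against 4151 ± 2309 CPM in the medium group (SD, n = 6 each), a 2.67-fold higher mean.

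In the miR-99/100 family, miR-99b-5p was at 422, 835 and 1256 CPM with T cells and at 235, 546 and 715 CPM with medium. Above the highest medium mouse lay 4 T cell mice, while T cell replicates 6 and 1 lay inside the medium range. The log2 fold change of 0.65 (standard error 0.29) had an unadjusted p of 0.0377 and an adjusted p of 0.673 in edgeR, and an adjusted p of 0.158 in DESeq2.

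miR-100-5p, which differs from miR-99a-5p by 1 base, was at 267, 528 and 623 CPM with T cells and at 203, 339 and 504 CPM with medium. T cell replicates 2 and 1 lay inside the medium range, and replicate 6, low for the miR-125 family, was here just above the highest medium mouse. The log2 fold change of 0.50 (standard error 0.28) had an adjusted p of 0.882 in edgeR and 0.342 in DESeq2.

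miR-99a-5p was at 426, 531 and 826 CPM with T cells and at 387, 523 and 706 CPM with medium, so that the groups were interleaved and their medians nearly coincided. Its log2 fold change was 0.12 (standard error 0.25, edgeR adjusted p = 0.990, DESeq2 adjusted p = 0.901), and its sign turned under other scalings of the libraries, to −0.26 with total counts and −0.51 with abundant miRNAs. The family sum was 1928 ± 424 CPM against 1416 ± 224 CPM (SD, n = 6 each), a 1.36-fold higher mean.

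In the miR-10 family, miR-10a-5p, encoded beside Hoxb4, was at 734, 1519.9 and 1942 CPM with T cells and at 523, 709 and 882 CPM with medium. Only T cell replicates 6 and 4 fell into the medium range, and 4 medium mice lay below every T cell mouse. The log2 fold change was 0.92 (standard error 0.26, edgeR unadjusted p = 0.00254, adjusted p = 0.259), and DESeq2 gave an adjusted p of 0.0176. The DESeq2 call was lost without medium replicate 2 (adjusted p = 0.0537) and held in the other 11 fits that left out 1 library.

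miR-10b-5p, from the Hoxd cluster, was at 293, 592 and 1179.5 CPM with T cells and at 203, 362 and 675 CPM with medium. The groups overlapped widely, with T cell replicates 5 and 2 above all medium mice and replicate 1 below 4 of them. The log2 fold change of 0.74 (standard error 0.34) had an unadjusted p of 0.0435 and an adjusted p of 0.673 in edgeR, and an adjusted p of 0.180 in DESeq2. The family sum was 2057 ± 695 CPM against 1127 ± 261 CPM (SD, n = 6 each), a 1.82-fold higher mean.

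The same mice set the extremes of the 3 family sums: T cell replicate 6 was the lowest of its group in each, medium replicate 2 the lowest and medium replicate 3 the highest of theirs. For each family sum, 4 T cell mice lay above the highest medium mouse. The libraries also differed as wholes. T cell replicate 6 had a TMM scaling factor of 1.18, and its 10 most abundant features held 15.9% of counts. The other T cell libraries had factors of 0.67 to 0.96 and shares of 24.1% to 41.8%. Medium libraries had factors of 0.97 to 1.32 and shares of 11.5% to 26.2%. The part of this library composition in the family sums was not tested.

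The size of all 7 fold changes rested on how the libraries were scaled to each other. TMM put the median of all features at −0.05, scaling to total counts at −0.38, and scaling to the miRNAs with mean counts of at least 100 (abundant miRNAs, by their median ratio) at −0.61. The abundant miRNAs include miR-125a-5p, miR-125b-5p, let-7e-5p, let-7c-5p and let-7a-5p. Under TMM, 75% of tested features with such means had a positive fold change (median 0.70). Centring on this set lowers every fold change by construction, so calls under it are not a separate test of the members. Across these, the median of the 7 members went from 0.74 to 0.31 and to 0.05, so the members shifted together with the whole table. miR-125b-5p remained positive at 1.15 and 0.89, miR-125a-5p at 0.85 and 0.60, miR-10a-5p at 0.50 and 0.25, miR-10b-5p at 0.31 and 0.05, and miR-99b-5p at 0.25 and 0.02. miR-99a-5p turned to −0.26 and −0.51, and miR-100-5p went to 0.18 and to −0.04. DESeq2 called 1 of the 7 with total counts, miR-125b-5p (adjusted p = 0.0253), and 0 of the 7 with the abundant miRNAs, where miR-125b-5p had an adjusted p of 0.0645. Calls fell over the whole table too, to 4 of 523 features higher with total counts and 2 of 1183 with abundant miRNAs.

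**Figure D2:**
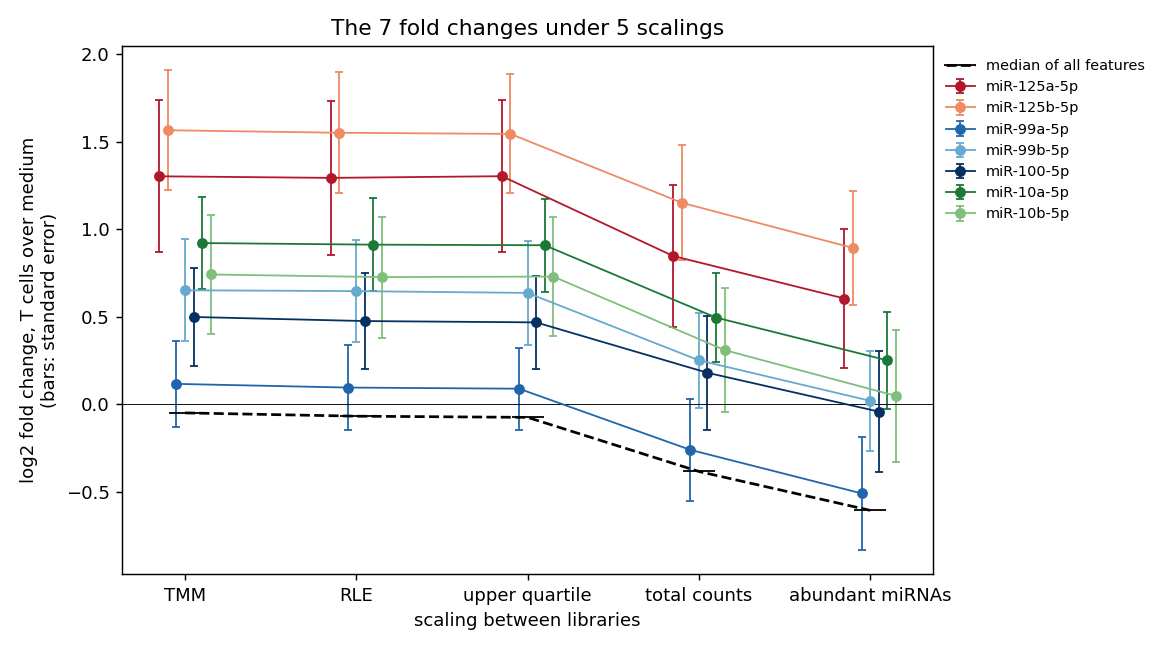
Log2 fold change of each member (y axis, T cells over medium, edgeR, bars standard errors) under 5 ways of scaling the libraries (x axis), with the median of all tested features as a dashed line. All 7 fold changes and the median of all features fall together from TMM to total counts and abundant miRNAs, and the order of the members is nearly kept, from miR-125b-5p to miR-99a-5p.

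The 3 let-7 miRNAs of the same clusters also had positive fold changes, under TMM, total counts and abundant miRNAs alike. let-7e-5p of the chromosome 17 cluster averaged 2118 ± 1002 CPM in the T cell group against 969 ± 357 CPM in the medium group (SD, n = 6 each), and its log2 fold change was 1.12 (standard error 0.34). The fold changes of let-7c-5p and let-7a-5p, partners on chromosomes 16 and 9 that are also made elsewhere in the genome, were 1.40 and 1.16. DESeq2 called 2 of these 3 higher, let-7c-5p (adjusted p = 0.0219) and let-7e-5p (adjusted p = 0.0259), and edgeR 0 of 3. For comparison, DESeq2 called higher 7.13% of all features with an adjusted p. Among tested features with a mean of 100 or more counts, to which these 3 belong, the share was 31.8%. Along chromosome 17 the log2 fold changes of the 5p arms were 0.65 for miR-99b, 1.12 for let-7e and 1.30 for miR-125a, 3 miRNAs of hairpins within 692 bases. They were, for comparison, miR-99a-5p at 0.12 and let-7c-5p at 1.40 on chromosome 16, and miR-100-5p at 0.50 and let-7a-5p at 1.16 on chromosome 9. In each of the 3 clusters the miR-99/100 member had the lowest fold change of these 5p arms, an order tested with ratios on chromosome 17 only. It was also the least abundant of them in each cluster. The miR-99/100 means were 36.9 to 60.8 counts, those of the let-7 partners 135 to 2098, and the median feature of a library had 15 to 30 counts. Whether the order follows abundance was not tested.

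**Figure D3:**
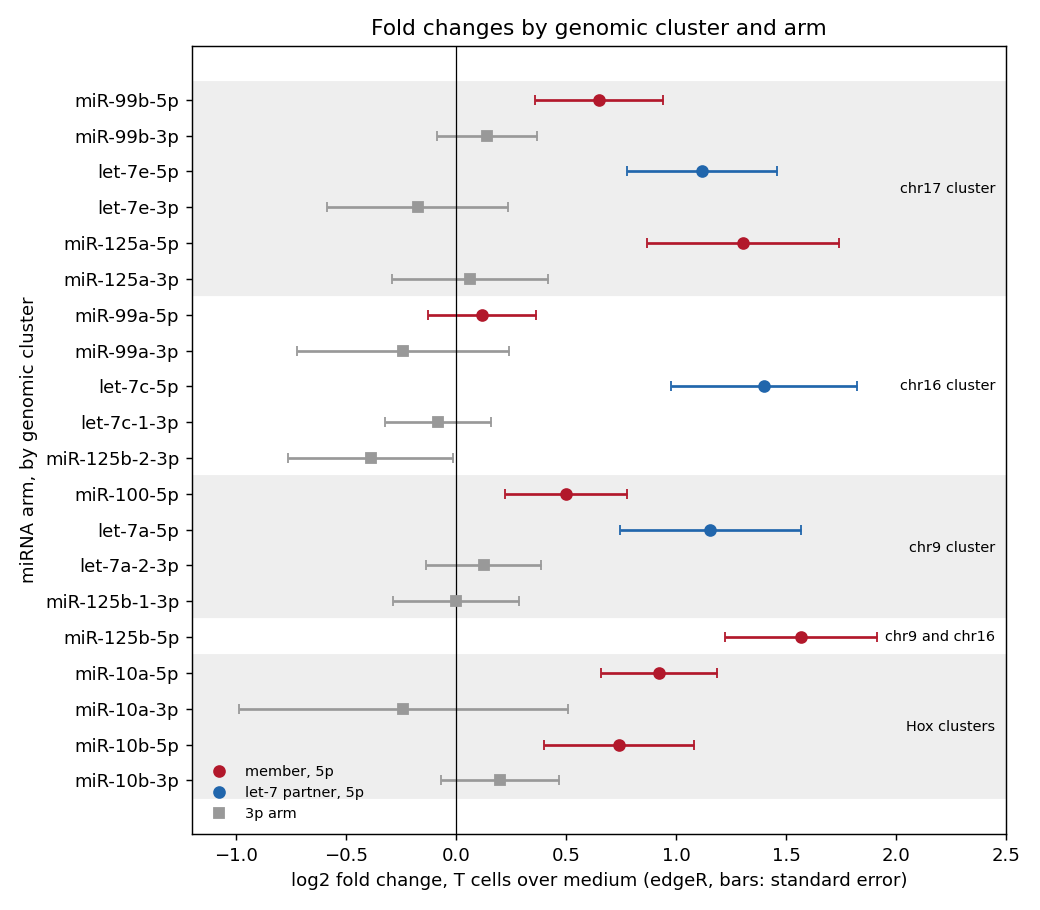
Log2 fold change (x axis, T cells over medium, edgeR, bars standard errors) of the arms of each hairpin, grouped by genomic cluster; red circles, the 7 members, blue circles, the let-7 partners, grey squares, the 3p arms. The 5p arms lie between 0.12 and 1.57, the tested 3p arms of the members between −0.39 and 0.20.

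Whether members moved unequally was tested with ratios of counts inside each library, which do not depend on the scaling. Of 8 ratios, 5 within a seed family and 3 within the chromosome 17 cluster, 0 passed (two-sided exact permutation test over all arrangements of 6 against 6 libraries, smallest p it allows 0.00216, adjusted p over the 8 ratios from 0.461 to 0.935). The widest difference was in miR-125a-5p to miR-99b-5p, whose mean log2 ratio was 2.77 ± 0.30 in the T cell group against 1.98 ± 1.26 in the medium group (SD, n = 6 each). The difference was 0.79 (standard error 0.53, exact permutation p = 0.169). The T cell mice were close together, from 2.21 to 3.05, whereas the medium mice ran from 0.25 to 3.36 and enclosed them. Medium replicate 2 had 44 and 37 counts of the 2 miRNAs, whereas medium replicate 6 had 156 and 15, a log2 ratio of 3.34.

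Within the families, miR-125b-5p to miR-125a-5p differed between the groups by 0.03 (standard error 0.29) on the log2 scale, miR-10b-5p to miR-10a-5p by −0.13 (standard error 0.39) and miR-99b-5p to miR-100-5p by 0.15 (standard error 0.41). The signs of these 3 turned in at least 1 fit without a library. miR-99b-5p to miR-99a-5p differed by 0.55 (standard error 0.41) and miR-100-5p to miR-99a-5p by 0.40 (standard error 0.26). In the latter, the T cell mice ran from −0.82 to 0.36 and the medium mice from −1.38 to −0.33, with 3 T cell mice above every medium mouse. let-7e-5p differed by 0.37 (standard error 0.31) against miR-99b-5p and by −0.42 (standard error 0.36) against miR-125a-5p.

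**Figure D4:**
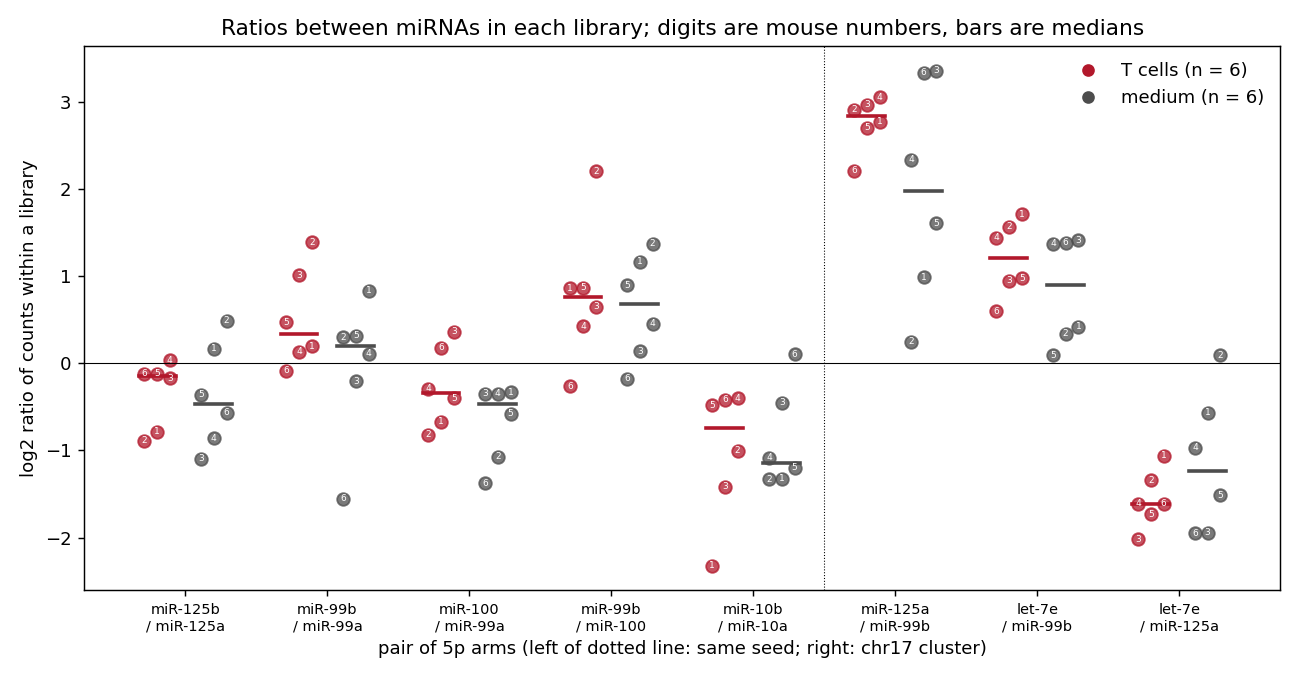
Log2 ratio of the counts of 2 miRNAs inside each library (y axis) for 8 pairs (x axis); red, T cells (n = 6), grey, medium (n = 6), digits the mouse numbers and bars the medians. The groups overlap in every pair, and the medium mice spread from 0.25 to 3.36 for miR-125a-5p to miR-99b-5p.

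Each hairpin also gives a 3p arm, and the arms of the 7 hairpin names were unequal in very different degrees. Over all libraries the 5p arm held 94.2% of the counts of miR-125a, 87.8% of miR-10a, 82.6% of miR-100, 82.5% of miR-125b (both 3p arms summed), 63.7% of miR-99a, 45.8% of miR-99b and 30.2% of miR-10b. The 3p means of miR-99a, miR-10a and miR-100 were only 27.8, 12.3 and 7.75 counts. The median feature of a library had 15 to 30 counts, so the shares of these hairpins are uncertain. miR-99b-3p and miR-10b-3p had higher means, 72.1 and 109 counts. miR-10b-3p outnumbered miR-10b-5p in 10 of the 12 libraries and miR-99b-3p outnumbered miR-99b-5p in 7, although the 5p arm is the name by which both families are known.

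The 3p arms had smaller fold changes than most of the 5p arms. Of the 8 listed 3p arms, 7 were tested (miR-100-3p had too few counts), with log2 fold changes from −0.39 to 0.20, 3 of them positive, and edgeR called 0. DESeq2 gave an adjusted p to only 2 of them, miR-99b-3p and miR-10b-3p, and called neither. Under total counts and abundant miRNAs, which lower the whole table, their median of −4.3e-05 went to −0.31 and −0.51, beside −0.38 and −0.61 for all features. miR-10b-3p, the most abundant of them, was at 628, 1438 and 1687 CPM with T cells and at 711, 1152 and 1389 CPM with medium. Above the highest medium mouse lay 3 T cell mice, replicates 6, 4 and 3, and below the lowest lay 1, replicate 2, and the log2 fold change was 0.20 (standard error 0.27). miR-99b-3p was at 598, 882 and 1002 CPM with T cells and at 540, 768 and 1074 CPM with medium. Its log2 fold change was 0.14 (standard error 0.23).

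Inside each library, the 5p share of miR-125b was 66.7%, 90.0% and 94.0% with T cells (lowest, median and highest) and 48.4%, 70.7% and 82.0% with medium. In 5 T cell mice it lay above every medium mouse, and T cell replicate 6 fell inside the medium range. For miR-125a the share was 84.1%, 95.8% and 98.8% with T cells and 65.7%, 89.3% and 96.6% with medium, with 2 T cell mice above every medium mouse. These shares were examined after the counts had been seen and were not tested. Mean counts were 23.1 for miR-125a-3p, 31.6 for miR-125b-1-3p and 27.5 for miR-125b-2-3p, near the median feature, at 15 to 30 counts a library. A change in the use of the arms therefore cannot be told apart from a change in the 5p level alone. The 3p arms had few counts, from 7 to 44 a library for miR-125a-3p, and a 5p share of 100% stands where the 3p arm was at 0. For miR-99a this was T cell replicate 2 and for miR-10a medium replicate 3, the libraries without counts from 1 to 9, and for miR-100 it was T cell replicates 1 and 2 and medium replicate 5. Low 3p counts missing from such a library cannot be told apart from true zeros.

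**Figure D5:**
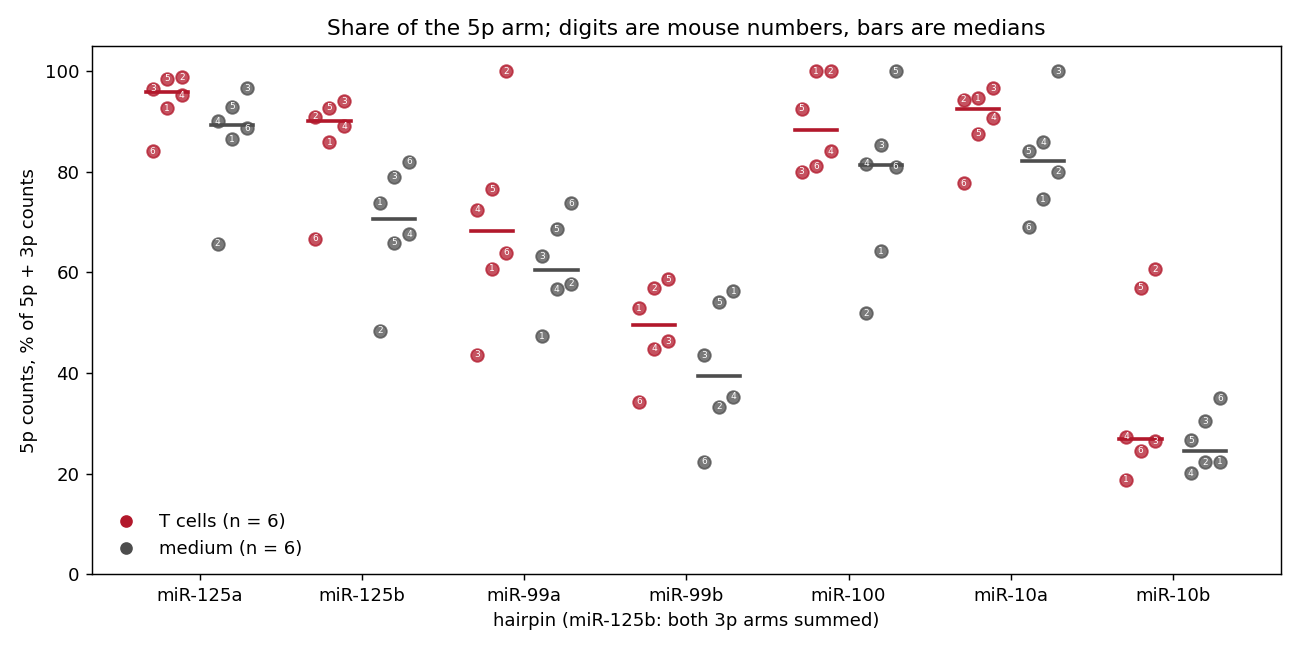
Percent of the 5p and 3p counts of a hairpin that fall on the 5p arm (y axis) in each library, by hairpin (x axis); red, T cells (n = 6), grey, medium (n = 6), digits the mouse numbers and bars the medians. The 5p share of miR-125b is above every medium mouse in 5 of the 6 T cell mice, and miR-10b is the hairpin with the lowest share.

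Other miRNAs with the miR-125 seed were miR-351-5p, miR-6367 and miR-6394, 3 of the 5 names with this seed in RefSeq and in the table. The log2 fold change was 0.46 for miR-351-5p (standard error 0.28, edgeR adjusted p = 0.918), and −0.17 when scaled to abundant miRNAs. miR-6367, whose mean of 52.4 counts exceeds that of miR-351-5p, had a T cell mean 0.78 times the medium mean and a log2 value of −0.34 on the log2 scale (standard error 0.33, edgeR adjusted p = 0.990). The fold change of miR-6394 was −0.32 (standard error 0.33). The last pair was named after the values were seen. The miR-99/100 and miR-10 seeds had no further name in RefSeq. The 7 arms of miR-196 and miR-615, the other miRNA genes of the Hox clusters, had log2 fold changes from −0.46 to 0.46, 2 of them positive, and edgeR called 0. DESeq2 gave an adjusted p to only 2 of them, miR-196a-2-3p and miR-196b-3p, and called neither.

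The features whose levels deviated most alike across the 12 libraries were sought for each member among 301 features with a mean of 50 or more counts, by Pearson's r of the deviations of log2 CPM from the group means. These values are descriptions, since the points share each library's depth and scaling. miR-125a-5p was closest to miR-126a-3p (r = 0.89) and miR-126a-5p (r = 0.84), the 2 arms of a miRNA listed here as endothelial, and then to the hepatocyte miRNA miR-122-5p (r = 0.77). miR-125b-5p was closest to miR-150-5p, a lymphocyte miRNA (r = 0.77), followed by both arms of miR-126a (r = 0.77 and 0.75). With each other, miR-125a-5p and miR-125b-5p had r = 0.85. Medium replicate 3 was the highest medium mouse for both members, both arms of miR-126a and miR-150-5p. It had 22056 CPM of miR-126a-3p, against a medium median of 4355 CPM. The values of r without this library were not computed.

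miR-10a-5p was closest to miR-342-3p (r = 0.86), a miRNA of blood cells, miR-7086-5p (r = 0.79) and miR-30a-5p (r = 0.75), and miR-10b-5p to miR-122-5p (r = 0.81), miR-92b-5p (r = 0.70) and miR-760-3p (r = 0.68). miR-99b-5p was closest to miR-103-3p (r = 0.88), miR-30a-5p (r = 0.87) and miR-191-5p (r = 0.86). miR-99a-5p was closest to miR-301a-3p (r = 0.75), miR-6964-5p (r = 0.71) and miR-705 (r = 0.71), and miR-100-5p to miR-767 (r = 0.78), a piRNA (r = 0.76) and miR-1927 (r = 0.75). Members of 1 seed family had lower r outside the miR-125 family: r was −0.10 for miR-99a-5p with miR-99b-5p, 0.05 for miR-99b-5p with miR-100-5p, 0.40 for miR-99a-5p with miR-100-5p and 0.34 for miR-10a-5p with miR-10b-5p. Between the miR-99/100 and miR-10 families, r ran from −0.05 (miR-100-5p with miR-10a-5p) to 0.62 (miR-99b-5p with miR-10a-5p). Counting error was 9.79% to 19.7% for the members of these 2 families and 4.82% to 8.96% for the miR-125 family. Its part in these values of r was not tested. In the chromosome 17 cluster the 1 pair compared, miR-125a-5p with miR-99b-5p, had r = 0.33.

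Marker miRNAs of 6 cell types were summed in CPM for each mouse, and on the TMM scale the means of all 6 sums were higher in the T cell group. With abundant miRNAs as the scaling, the median log2 fold change of the listed markers was −0.02 for T lymphocyte, −0.10 for mesenchymal and −0.19 for liver markers, and 0.28 to 0.39 for the other 3 lists. That scaling lowers every fold change relative to TMM by its construction. The 7 T lymphocyte markers summed to 12415 to 29171 CPM with T cells and 6322 to 21615 CPM with medium. The 4 endothelial markers summed to 9007 to 33515 CPM against 3781 to 26910 CPM, with medium replicate 3, high for the miR-125 family, as the highest medium mouse. The 6 erythroid markers summed to 37952 to 342375 CPM with T cells and 26699 to 138670 CPM with medium. Of their mean sums of 146003 and 70047 CPM, miR-16-5p alone held 79390 and 35673 CPM. The 4 platelet and myeloid markers summed to 17129 to 50203 CPM against 7498 to 18377 CPM. The 5 of 6 mesenchymal and smooth muscle markers found by name summed to 1931 to 3087 CPM against 1177 to 2327 CPM, and the 3 liver markers to 2142 to 3395 CPM against 1103 to 2588 CPM. The means were 1.43 to 2.44 times as high with T cells over the 6 lists. T cell replicate 6, lowest for the 3 member families, was the lowest T cell mouse in 5 of these lists, all but the liver list. Medium replicate 6 was the lowest medium mouse in the same 5 lists. Its library had the highest TMM scaling factor, 1.32, and its 10 most abundant features held the lowest share of counts, 11.5%. The listed markers were detected in both groups, T lymphocyte markers included. How particular each marker is to its cell type was not tested. DESeq2 called 1 of 7 T lymphocyte, 3 of 4 platelet and myeloid and 1 of 4 endothelial markers higher and 0 of the other lists. In those other lists it gave an adjusted p to 6 of 6 erythroid, 2 of 6 mesenchymal and 2 of 3 liver markers. It gave none to 1 of the endothelial markers. For comparison, DESeq2 called higher 7.13% of all features with an adjusted p. Among tested features with a mean of 100 or more counts, the share was 31.8%. In the mesenchymal list miR-145a-5p, miR-145a-3p and miR-199a-5p, and in the liver list miR-122-3p, were at 0 in at least 1 library. The part of these cell types in the levels of the 7 miRNAs was not tested.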

How the data were processed

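Per the labels and the study's methods, small RNA libraries of serum EVs were base-called with bcl2fastq 2.18.0.12 (submitters' processing notes), trimmed, searched for unique molecular identifiers (UMIs) and aligned to miRBase 21 and mm10 with the GeneGlobe service of Qiagen. Whole-number counts per feature were deposited, 1 column per mouse, not normalized (1885 miRNAs, 110 piRNAs). The table does not say whether reads or UMIs were counted. Totals were 48997 to 130106 counts.

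Features were filtered with filterByExpr, scaled by TMM and tested between the groups without covariates with edgeR 4.0.16 (quasi-likelihood, Benjamini-Hochberg over all tested features, threshold 0.05) in R 4.3.3. DESeq2 1.42.0 with its defaults and limma 3.58.1 (voom with quality weights) were alternatives. Standard errors of edgeR fold changes come from the fitted model. Ratios used counts plus 0.5 and exact permutation tests (scipy 1.17.1). Likeness used log2(CPM + 10). Sequences are from RefSeq and positions from GENCODE annotation of GRCm38. Procedures were tested on simulated data. The members, lists, ratios and alternatives were chosen with earlier results of these data known. Named miRNAs are the members, their cluster partners, arms, seed mates, Hox cluster miRNAs, and the 3 features most like each member.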

Additional observations from a re-analysis of the deposited data

How the results depend on the processing

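edgeR called 0 of the 7 members and 0 features under every scaling, filter and left-out library tried, and limma voom, run once with TMM, also called 0. DESeq2 called 44 features and 3 members with its defaults, and 18 features and 1 member without its filters. The further DESeq2 alternatives were chosen with the counts already seen. They called 1 member with total counts, 0 with abundant miRNAs and 2 without both libraries that lack low counts. With 1 library left out they called 1 (without medium replicate 2) to 4 (without T cell replicate 6). The abundant miRNAs include miR-125a-5p and miR-125b-5p themselves. Over the whole table, the features called higher were 4 of 523 with total counts and 2 of 1183 with abundant miRNAs. They were 8 of 1047 without both libraries that lack low counts. With 1 library left out they were 23 of 636 (medium replicate 2) and 58 of 559 (T cell replicate 6). Without both libraries that lack low counts, the log2 fold change was 1.56 for miR-125a-5p and 1.74 for miR-125b-5p.

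With total counts miR-99a-5p was at −0.26, and with abundant miRNAs miR-99a-5p was at −0.51 and miR-100-5p at −0.042. Of the 8 ratios, 0 passed in any alternative. Without both libraries that lack low counts, miR-125b-5p to miR-125a-5p was at −0.0056 and miR-99b-5p to miR-100-5p at −0.23. With 1 library left out, the differences ran from −0.12 to 0.20 for miR-125b-5p to miR-125a-5p, from −0.13 to 0.36 for miR-99b-5p to miR-100-5p and from −0.25 to 0.14 for miR-10b-5p to miR-10a-5p. The cause of these turns was not tested.

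Whether equal replicate numbers pair the mice cannot be told from these values. Same-numbered libraries correlated at 0.00378 to 0.364 in their deviations from the group means. The same-numbered medium library was the closest match for T cell replicate 6 only. With the replicate number as a block, edgeR called 0 members and DESeq2 3 (miR-125b-5p log2 fold change 1.49 in edgeR), and 0 ratios passed. In that fit DESeq2 called 52 of 951 features higher. Depth limits the 5 members with means under 100 counts. Since the labels give no batch or day, none could be checked.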
